A study of Mus musculus with 8 samples.

Results

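N6-methyladenosine (m6A) is the most common internal modification of mRNA, and this account is about the genes of C2C12 myoblasts that carried an m6A peak after differentiation and none before it. The members are the 1381 peak lines, of 112768 in all 4 lists, that lie on 211 genes, of 9153 genes with a line in any list. They were chosen by the presence of a line for the gene symbol in both lists from cells in differentiation medium (3d DM) and by its absence from both lists from cells in growth medium (GM), so the difference in peaks between the states is the selection itself and is described here without a test. By this rule 2.31% of the genes with a peak qualified. The list of 3d DM replicate 1 held 761 of the lines, which merged into 368 distinct peaks, and that of 3d DM replicate 2 held 620 lines and 315 distinct peaks. A line is one transcript with a peak, so a gene with several transcripts has several lines for the same place.

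C2C12 is an immortalized line of mouse myoblasts. GM cells grew in 10% fetal bovine serum and were taken near 50% confluence, and 3d DM cells were taken 3 days after a switch, at over 90% confluence by the sample labels, to 2% horse serum. Each state had 2 immunoprecipitated libraries (MeRIP-seq, enriched with an antibody against m6A) and 2 input libraries, and each peak list was called by the authors from 1 immunoprecipitated library against its input. No treatment other than the medium separates the groups. Nothing in the labels says that the replicates came from separate cultures, so the spread between these libraries may be technical. The p-values for RNA use a spread taken from genes of like RNA level, not a gene's own, so a small one does not show tight replicates.

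In cells, m6A is written by the METTL3 complex while the RNA is made, mostly at adenosines within the consensus DRACH (D is any base but C, R is A or G, and H is any base but G), and it clusters near the end of the coding sequence (CDS). A peak is a stretch of RNA with more immunoprecipitated than input fragments. It needs RNA to be seen, so a gene that is silent in one state can have no peak there. Myoblasts that differentiate leave the cell cycle, switch on the genes of the contractile apparatus and fuse into myotubes.

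The input libraries carried the marks of the states they are labelled as. The summed RNA value of 6 differentiation markers (Myog, Myh3, Ckm, Mymk, Acta1 and Tnnt3) came to 5114.5 (replicate 1) and 1163.3 (replicate 2) for GM cells but to 95440 and 132768 for 3d DM cells. The sum of 5 markers of dividing myoblasts (Myod1, Myf5, Mki67, Ccnb1 and Top2a) was 11105.4 and 11573.2 in GM, then 2105.7 and 3767.6 in 3d DM, although Myod1 itself overlapped between the states. Markers of other cell types (Ptprc, Pecam1, Adipoq, Epcam and Krt18) summed to at most 2.2, and Adipoq and Krt18 were at 0 in all 4 libraries. The values are a normalized signal with nearly the same total in each library. Its depth is unknown. In such bulk samples, more differentiated cells and more RNA per cell cannot be told apart.

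The sequences below are stretches that the peaks of both 3d DM lists cover on 8 members. Of these, 4 are from genes whose RNA was scarce in at least 1 GM library and 4 from genes expressed in both states. A shared peak can go on in other exons, and covers 315 bases on Myh6 and 180 on Rb1. The sequences run 5′ to 3′ along the RNA strand with DRACH matches in capitals. They were read from GRCm38 (mm10), and each is the part inside a single coding exon of GENCODE release M21. The genes shown were picked after their values were seen. The Unc45b stretch is in exon 2 of 20 at chr11:82911723-82911847 (plus strand), Myh6 in exon 36 of 39 at chr14:54944278-54944483 (minus), Cacna1s in exon 39 of 44 at chr1:136115148-136115276 (plus) and Ryr3 in exon 79 of 104 at chr2:112668045-112668144 (minus). The Smyd1 stretch is in exon 6 of 10 at chr6:71225332-71225463 (minus), Nrap in exon 20 of 42 at chr19:56361112-56361216 (minus), Rb1 in exon 13 of 27 at chr14:73265516-73265632 (minus) and Ttc17 in exon 19 of 25 at chr2:94330567-94330667 (minus).
Unc45b: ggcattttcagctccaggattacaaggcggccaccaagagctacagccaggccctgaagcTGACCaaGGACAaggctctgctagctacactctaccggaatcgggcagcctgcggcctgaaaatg
Myh6: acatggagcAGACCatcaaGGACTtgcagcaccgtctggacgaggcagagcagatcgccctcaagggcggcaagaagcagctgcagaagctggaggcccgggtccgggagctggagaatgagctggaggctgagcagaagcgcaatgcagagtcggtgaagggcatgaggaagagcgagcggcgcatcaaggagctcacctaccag
Cacna1s: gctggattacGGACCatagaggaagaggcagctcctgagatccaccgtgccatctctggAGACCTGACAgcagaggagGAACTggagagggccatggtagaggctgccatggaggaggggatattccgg
Ryr3: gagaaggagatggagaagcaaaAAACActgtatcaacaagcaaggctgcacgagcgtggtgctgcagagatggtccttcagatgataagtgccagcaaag
Smyd1: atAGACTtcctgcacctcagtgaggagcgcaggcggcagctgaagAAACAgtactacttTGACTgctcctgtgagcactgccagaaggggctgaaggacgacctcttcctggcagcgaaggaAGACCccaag
Nrap: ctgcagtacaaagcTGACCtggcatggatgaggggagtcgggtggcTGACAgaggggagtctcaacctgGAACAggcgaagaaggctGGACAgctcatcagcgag
Rb1: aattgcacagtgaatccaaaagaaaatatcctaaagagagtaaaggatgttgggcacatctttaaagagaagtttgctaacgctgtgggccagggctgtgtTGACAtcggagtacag
Ttc17: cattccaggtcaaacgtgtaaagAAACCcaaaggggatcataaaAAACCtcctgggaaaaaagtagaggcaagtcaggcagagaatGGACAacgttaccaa

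Another 4 members had their shared peak in the 3′ untranslated region (UTR), and 25 bases around the DRACH match nearest to its centre are shown for each. These sites lie in the last exon of Trim72 at chr7:128010893-128010917, of Zfyve27 at chr19:42192526-42192550, of Dbt at chr3:116549481-116549505 and of Vps50 at chr6:3602866-3602890, all on the plus strand.
Trim72: tgctcgtatcTAACTgtcttttcaa
Zfyve27: ctgtcttgaaAAACCgaaAAACAaa
Dbt: ctaatattatcTAACTaagtatatc
Vps50: tcttctaagaAAACTttgagcatgt

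Of the 12 shared stretches, that of Myh6 had the smallest P value in each list, with a fold enrichment over input of 14.8 in 3d DM 1 and 10.9 in 3d DM 2. Dbt had the highest fold of the 12 in 3d DM 1, 24.3, against 10.0 in 3d DM 2, and Trim72 the lowest in both, 2.04 and 2.46. The Ttc17 stretch had 3.33 and 8.35, less than the gene's best peak in either list. Whether the marked adenosines are the methylated ones cannot be read from a peak.

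The members fell into classes by their RNA. With a limit of 25.1 units, which is 2 cpm of the column total (cpm, parts per 1e6), 99 of the 211 genes (46.9%) were at or over the limit in all 4 input libraries and are called expressed in both states. Another 66 genes (31.3%) were under it in both GM libraries and over it in both 3d DM libraries, called low in GM, a class that a limit of 1 cpm would reduce to 36 genes. There were 38 genes with mixed values, 5 low in both states and 3 with no value in the expression table (Colca2, Gm15557 and Gm42417). Of the mixed genes, 30 were under the limit in GM 2 alone. So the absence of a GM peak went with absent or scarce RNA on some members and with readily measured RNA on others. Set beside them, 97.2% of the 4989 genes with a peak in all 4 lists and 76.4% of the 326 genes with a peak in both GM lists and no 3d DM list were expressed in both states. The input libraries are also what the peaks were called against, so RNA values are not independent of the rule.

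**Figure D1:**
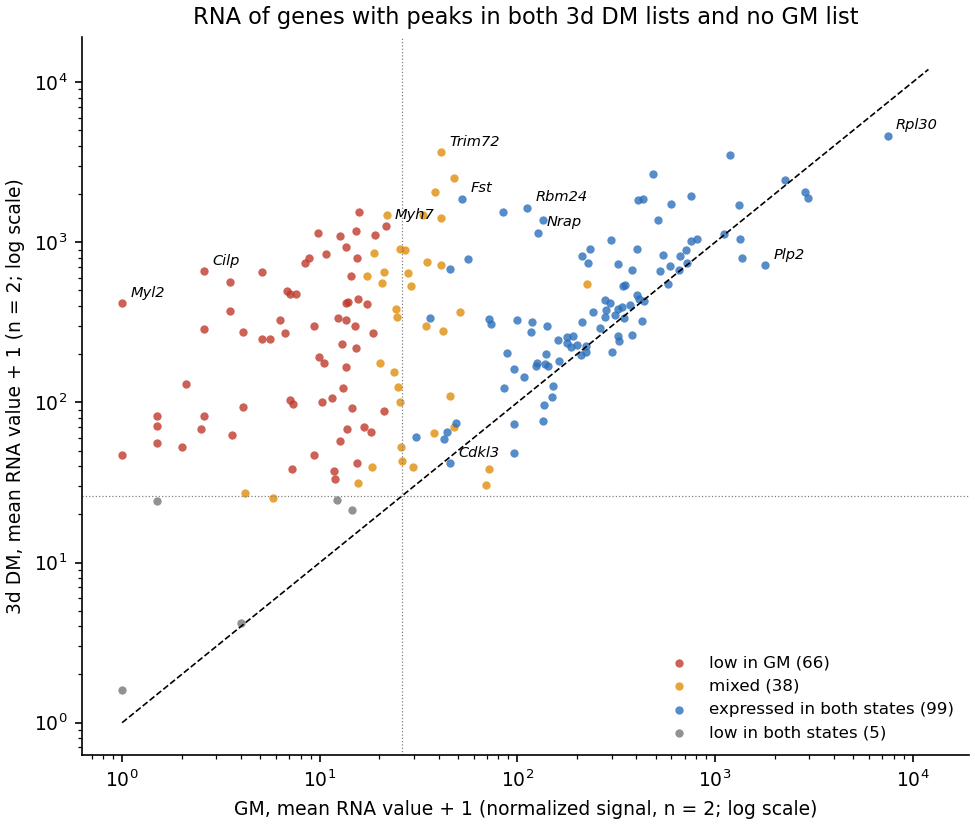
Mean RNA value plus 1 of each member in GM (horizontal axis) and 3d DM (vertical axis), normalized signal on log scales, n = 2 input libraries per mean. Points are the 208 members with a value, coloured by class, the dashed line marks equal values and the dotted lines the limit of 25.1 plus 1; the low in GM class stands in the upper left and the class expressed in both states lies along and above the dashed line.

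GM 1 held more RNA of the members than GM 2, on 168 of the 208 genes with a value, as it did of the differentiation markers. Its part in the classes was not tested. Of the 66 genes low in GM, 50 were higher in GM 1. The same count over all genes was not made. The median-of-ratios scale of GM 1, over genes measured in all 4 libraries, was also above that of GM 2 (log2 0.24 against -0.04). Some lead of GM 1 was therefore present beyond the members, but whether it was as large there was not tested. Median values of the members in GM 1 and GM 2 were 11.65 and 5.5 units for genes low in GM. They were 39.9 and 15.1 for mixed genes and 282.0 and 201.7 for genes expressed in both states.

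Sarcomere genes were the largest muscle group among the members. Of the 86 genes in a list of sarcomere proteins, 21 were members, 38 had a peak in all 4 lists and 13 in none. Over the whole list 67 of 77 tested genes were higher in 3d DM and 0 lower (limma, Benjamini-Hochberg adjusted p under 0.05 over 11406 genes), where 7.01% of all tested genes were higher and 9.96% lower. Myh3, the embryonic myosin heavy chain, and Tnnt3, a fast troponin T, had peaks in all 4 lists although their RNA rose from 1068 and 273 to 33480 and 51670 units (Myh3) and from 596.8 and 111.4 to 13510 and 12980 units (Tnnt3), so a steep rise in RNA did not by itself make a sarcomere gene a member. All GM libraries held over 100 units of these RNAs.

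The myosins among the members started lower. Myh7, the slow or beta myosin heavy chain, had RNA values of 22.1 and 19.1 in GM against 917.7 and 1616.7 in 3d DM, with a log2 fold change of 5.82 on the log2(value + 1) scale (standard error 0.485, limma adjusted p = 1.13e-30). Myh4, the fast IIb chain, went from 9.3 and 19.1 to 1834.7 and 514.0 (log2 fold change 6.08). Its 3d DM replicates differed more than 3-fold from each other, yet both stood far above GM. Myh6, the alpha chain, rose from 4.1 and 8.0 to 373.0 and 568.5 and Myh7b from 6.3 and 7.0 to 461.9 and 488.8. Myl2, the regulatory light chain of slow and ventricular muscle, was listed at 0 in both GM libraries and at 506.8 and 322.3 in 3d DM. The myosin heavy chains are close relatives, and Myh6 and Myh7 are neighbours on chromosome 14, so reads could be assigned to the wrong member.

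Their peaks differed in strength. The best fold enrichment of Myh6 was 14.8 and 10.9 in 3d DM 1 and 2, that of Myh7 was 6.05 and 19.0, that of Myh4 8.56 and 8.24 and that of Myl2 2.18 and 2.54. Myh6 carried 6 and 4 distinct peaks and Myh7 4 in each list, and the best peak of both genes lay in the CDS.

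Chaperones and assembly factors of the sarcomere showed both classes. Unc45b, the myosin chaperone, was low in GM at 22.4 and 1.0 units and reached 857.2 and 1318.2 in 3d DM. Smyd1, a muscle methyltransferase needed to assemble myofibrils, was measured in all libraries, at 213.9 and 53.2 in GM, then 1039.3 and 1724.6 in 3d DM (log2 fold change 3.63, standard error 0.45, limma adjusted p = 6.41e-14). Nrap, an anchoring protein of growing myofibrils, had 168.4 and 83.3 against 933.9 and 1361.8. Neither had a peak line in GM, although their RNA was over the limit of 25.1 in both GM libraries. The Smyd1 peak was weak, at best 2.43 and 3.82 over input, and the Nrap peak reached 5.29 and 3.13.

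Z-disc and M-band proteins were largely low in GM. Myoz2 (calsarcin-1) rose from 11.6 and 6.0 to 997.7 and 1292.0, Csrp3 (muscle LIM protein) from 11.7 and 4.0 to 636.9 and 955.5, and Smpx from 22.1 and 14.1 to 1204.2 and 1013.1. Each had a single distinct peak per list of low fold, between 1.42 and 3.10. Tcap (telethonin), with 4.2 and 4.0 units in GM, then 217.7 and 279.6 in 3d DM, had a 3′ UTR peak of fold 4.31 and 9.74. Myom1, of the M-band, stood at 47.6 and 17.1 in GM, then 1398.3 and 1559.7 in 3d DM. Klhl40 and Trim63, which serve protein stability and turnover in muscle, had similar mixed values in GM, 52.9 and 15.1 for Klhl40 and 36.2 and 3.0 for Trim63. Of the 21 sarcomere members, 13 were low in GM, so the direction of their change is set by the class, and the 3 expressed in both states (Smyd1, Nrap and Mylk4) were each called higher.

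**Figure D2:**
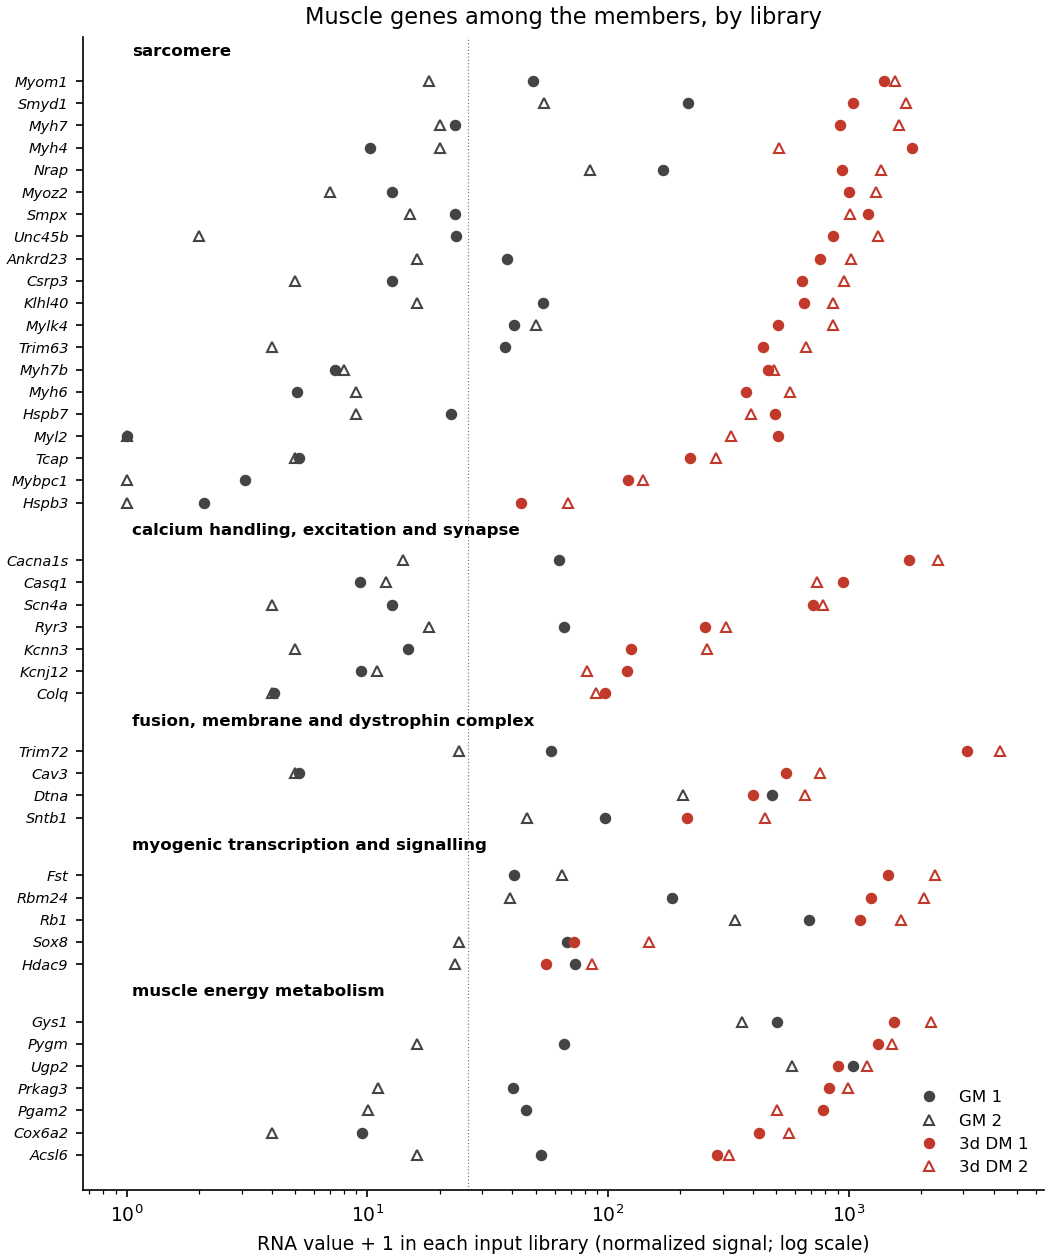
RNA value plus 1 of the members of the muscle lists reported here, in each of the 4 input libraries (normalized signal, log scale), grouped by list and ordered by the 3d DM mean; the dotted line is the limit of 25.1 plus 1. Most genes have both 3d DM points well to the right of both GM points, while Dtna, Hdac9 and Ugp2 overlap and the Sox8 points of GM 1 and 3d DM 1 nearly touch, and the filled GM 1 point lies right of the open GM 2 point on most rows.

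Genes of calcium handling, excitation and the synapse gave 7 members of a list of 57, and 33 of its 42 tested genes were higher in 3d DM and 0 lower. Cacna1s, the pore subunit of the muscle L-type calcium channel, was at 61.4 and 13.1 units in GM, then 1775.2 and 2348.1 in 3d DM (log2 fold change 6.11, standard error 0.47, limma adjusted p = 2.27e-36). It carried 4 and 3 distinct peaks. Ryr3, a calcium release channel, rose less, from 64.5 and 17.1 to 250.9 and 308.4 (log2 fold change 3.02), and had a peak of fold 18.0 and 7.93. Casq1, the calcium buffer of the sarcoplasmic reticulum, went from 8.3 and 11.0 to 949.1 and 735.5, and Scn4a, the muscle sodium channel, from 11.7 and 3.0 to 711.7 and 779.6. Colq, the tail that anchors acetylcholinesterase at the synapse, rose from 3.1 and 3.0 in GM to 96.6 and 88.3 in 3d DM, and its peak had folds of 19.0 and 4.38. The Ryr3 call was lost without GM 2 (log2 fold change 2.09), without 3d DM 1 (3.17) and without 3d DM 2 (2.87).

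Membrane and fusion genes gave 4 members of 59, with 20 of 48 tested list genes higher and 2 lower. Trim72 (MG53), a membrane repair protein, had the highest 3d DM level among the 44 muscle members, 3086.9 and 4256.7 units against 57.0 and 23.1 in GM (log2 fold change 6.60, standard error 0.45, limma adjusted p = 8.96e-45). Cav3, the muscle caveolin, went from 4.2 and 4.0 to 548.3 and 755.6. Sntb1, a syntrophin of the dystrophin complex, was expressed in both states, at 95.9 and 45.2 in GM, then 212.3 and 447.7 in 3d DM (log2 fold change 2.21). Dtna, another protein of that complex, did not pass the test, with 477.6 and 203.7 against 397.6 and 659.7 units, and its peaks in the 2 lists did not overlap. The Sntb1 call was lost when GM 2, 3d DM 1 or 3d DM 2 was left out, with log2 fold changes of 1.67, 2.75 and 1.67.

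Regulators of myogenesis gave 5 members of a list of 68, of which 20 of 58 tested genes were higher and 9 lower. Fst, the secreted follistatin that binds myostatin and activins, rose most, from 39.7 and 63.2 to 1459.2 and 2288.4 units (log2 fold change 5.16, standard error 0.46, limma adjusted p = 5.28e-27). Rbm24, a splicing regulator of muscle, went from 183.5 and 38.2 to 1237.8 and 2053.9. Rb1, which holds differentiated cells out of the cell cycle, was well expressed in GM at 684.7 and 337.2 units and reached 1114.6 and 1643.7 in 3d DM (log2 fold change 1.49, standard error 0.43, limma adjusted p = 0.00512). Its call was lost without GM 2 (0.98), without 3d DM 1 (1.77), without 3d DM 2 (1.21) and with the replicate number as a block (1.49). Hdac9 and Sox8 did not pass the test. Hdac9 overlapped between the states, at 71.8 and 22.1 in GM against 54.1 and 84.5 in 3d DM. Sox8, at 66.5 and 23.1 against 71.3 and 147.1, did not overlap.

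Energy metabolism gave 7 members of 50 listed genes, 21 of 39 tested higher and 1 lower. Both ends of glycogen turnover were present. Pygm, the muscle glycogen phosphorylase, rose from 64.5 and 15.1 to 1321.5 and 1506.4 units (log2 fold change 5.44), and Gys1, the muscle glycogen synthase, from 501.6 and 360.3 to 1534.6 and 2189.1 (log2 fold change 2.11, standard error 0.43, limma adjusted p = 1.78e-05). The Gys1 call was lost without GM 2 (1.87). Ugp2, which makes the UDP-glucose that the synthase uses, did not pass, with 1037.9 and 582.1 units in GM, then 897.9 and 1190.7 in 3d DM. Prkag3, a muscle subunit of AMP-activated kinase, rose from 39.2 and 10.1 to 827.2 and 989.9, and Acsl6, an acyl-CoA synthetase, from 51.8 and 15.1 to 281.4 and 318.7. The 3′ UTR peak of Acsl6 was among the strongest of all members, 12.5 and 19.5 over input. Its call was lost without 3d DM 1 (3.46).

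Of a list of 83 cell cycle and DNA replication genes 0 were members, which at 2.31% of all genes with a peak is no result about the members. By the test 80 of the 83 were lower in 3d DM and 0 higher. Among them 19 had peaks in both GM lists and no 3d DM list, and 21 had a peak in all 4.

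Together the muscle lists held 44 members, 20.9% of 211, and the other 167 belonged to none. Of the 44, 20 were low in GM, 14 mixed and 10 expressed in both states, and of the 167, 46, 24 and 89. Outside the lists the largest changes were of Cilp, an extracellular matrix protein, with 3.2 and 0.0 units in GM, then 553.4 and 766.7 in 3d DM, Gja5, the gap junction protein connexin 40, with 2.1 and 3.0 against 559.1 and 575.3, and Trp63, a relative of p53, with 2.1 and 1.0 against 272.4 and 300.9 (log2 fold changes 8.31, 7.34 and 6.845). Pgm5, a protein of cell junctions that resembles phosphoglucomutase, had the highest mean 3d DM value of the low in GM class, 1507.0 and 1595.1 units, after 22.3 and 7.0 in GM. Filip1, Shroom3 and Ablim3, which bind or regulate the actin cytoskeleton, were also low in GM. Shroom3 had 4 and 6 distinct peaks, Alpk3, an atypical kinase, 5 and 4, and the unconventional myosin Myo18b 5 in each list.

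For the genes low in GM the direction of the RNA change is fixed by the class. For genes expressed in both states the limit fixes no direction. They were still chosen by peaks called against these inputs, so their counts are a description and no support. Genes with a peak in both GM lists and no 3d DM list leaned the other way, 118 of 303 tested being lower and 1 higher. Of the 99 members expressed in both states, 25 (25.3%) were higher in 3d DM and 1 was lower. Among the 10211 genes at the limit in all 4 libraries, 4.26% were higher and 8.76% lower. The count of 25 fell to 9 without GM 2, 14 without 3d DM 1 and 11 without 3d DM 2, beside 1.20%, 1.51% and 1.15% of the 10211. The median log2 fold change was 0.40 over the 99 genes and -0.24 over the 10211. All tested genes had a median of -0.22, which became -0.02 after median-of-ratios rescaling. Then 31 of the 99 and 9.84% of the 10211 were higher. Both 3d DM values stood above both GM values on 41 of the 99 genes and on 14.1% of the 10211, and below them on 10 of the 99 and 37.3% of the 10211. Over all 200 tested members 114 were higher and 1 lower, but genes low in GM passed the filter through 3d DM alone, so this count is no support.

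Plp2, a small membrane protein, was the 1 member called lower, with 1914.4 and 1650.8 units in GM, then 687.3 and 742.6 in 3d DM (log2 fold change -1.31, standard error 0.425, limma adjusted p = 0.0154). It kept its sign and lost the call in every run with a library left out (-1.21 to -1.42) and under the replicate block (-1.31). Its 3′ UTR peak, of fold 3.04 and 3.34, was found in the state with less of its RNA. The shared peak of another member, Prickle3, lies at the same place on the opposite strand, with folds of 2.28 and 3.06.

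The other 73 genes expressed in both states were not called. Here belong abundant housekeeping genes with weak peaks. Rpl30, a ribosomal protein, had 8064.7 and 6866.1 units in GM, then 4171.4 and 5093.4 in 3d DM and a best fold of 1.39 and 2.14. Rps4x, also ribosomal, had a best fold of 1.30 and 1.86, and Vdac1, the mitochondrial porin, the lowest of all members in both lists, 1.22 and 1.49. These 3 genes were chosen after their values were seen.

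Peaks of high fold occurred in this class too. The 10 genes with the highest fold, ranked by the weaker of the lists, were Zfyve27, Thsd7a, Vps50, Ift22, Ttc17, Bicc1, Drp2, Mylk4, Dbt and Cdkl3. Zfyve27 (protrudin), which acts in endoplasmic reticulum and vesicle traffic, had best folds of 18.0 and 16.7 and RNA values of 181.8 and 199.7 in GM, then 191.4 and 325.2 in 3d DM. Vps50, of an endosomal recycling complex, had 12.7 and 14.2 over input with 414.2 and 404.4 units in GM, then 347.5 and 537.5 in 3d DM. Dbt, a subunit of the dehydrogenase that breaks down branched-chain amino acids, had 24.3 and 10.0 with 99.8 and 113.4 against 93.1 and 191.5 units. The RNA values of Zfyve27, Vps50 and Dbt overlapped between the states, and none of the 3 was called. Ift22, of intraflagellar transport, and Ttc17 had folds of 20.1 and 11.7 and of 11.6 and 11.7. Mylk4, a kinase of the myosin light chain kinase family, was the 1 of the 10 whose RNA was called, rising from 39.8 and 49.2 to 507.8 and 858.0 units (log2 fold change 3.87, limma adjusted p = 7.1e-14). Peaks of Thsd7a, Bicc1 and Drp2 did not overlap between the lists. The best peaks of Zfyve27, Vps50, Ttc17, Mylk4 and Cdkl3 lay at different places in the lists, and those of Ift22 shared 1 base. Of the 10 genes, only Dbt had its best fold at the same place in both lists. The shared peaks shown above had folds of 18.0 and 13.4 on Zfyve27 and of 5.74 and 14.2 on Vps50. High fold did not go with small P values throughout: the larger of the best P values was 4.37e-06 for Mylk4 and 5.62e-05 for Zfyve27 but 0.00155 for Ift22, 0.00234 for Bicc1, 0.00214 for Drp2, 0.00457 for Dbt and 0.00776 for Cdkl3, the last being the largest P value in the 3d DM 2 list.

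Best folds recurred across unrelated genes. In 3d DM 2 the value 11.7 was the best fold of 18 members and stood on 383 of the 23785 lines of that list, and 10.0 was the best of 11 members. The 211 best folds took 115 different values in 3d DM 2 and 139 in 3d DM 1. The lists give no read numbers, so no counting error can be attached to a fold.

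The 5 genes low in both states were G0s2, Gal3st4, Rep15, Gprin3 and Gprc5d. They, and Dvl2 further on, were named after their values were seen. Rep15 had 16.9 and 10.0 units in GM, then 17.9 and 22.9 in 3d DM with peaks of fold 21.2 and 11.7. G0s2, an inhibitor of triglyceride breakdown, was listed at 0 in 3 of the 4 libraries and at 1.1 in 3d DM 1, although its peaks had folds of 1.99 and 3.43 over the same inputs.

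Fold enrichment differed between the classes. Over distinct peaks the median fold was 4.91 and 5.35 (3d DM 1 and 2) for genes low in GM and 2.82 and 3.94 for genes expressed in both states. For genes with a peak in all 4 lists the medians were 3.84 and 4.45, between those of the classes. Genes whose best fold was at least 10 in both lists numbered 27, of which 9 were expressed in both states. Over all 211 members the best fold ran from 1.22 to 25.4 with a median of 4.23 in 3d DM 1, and from 1.49 to 23.4 with a median of 5.65 in 3d DM 2.

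The statistical support of the members' peaks was lower than elsewhere. A P value of at most 1e-05 was reached by 40.8% and 31.1% of their distinct peaks in the lists, by 33.3% and 24.4% of those on genes expressed in both states, and by 65.7% and 50.6% of those on genes with a peak in all 4 lists. Members had 1.74 and 1.49 distinct peaks per gene, the genes in all 4 lists 2.12 and 1.86. A single distinct peak in each list was found on 110 members. Median widths were 181 and 151 nt against 300 and 239 nt. The peaks chose the members, so these values are a description.

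**Figure D3:**
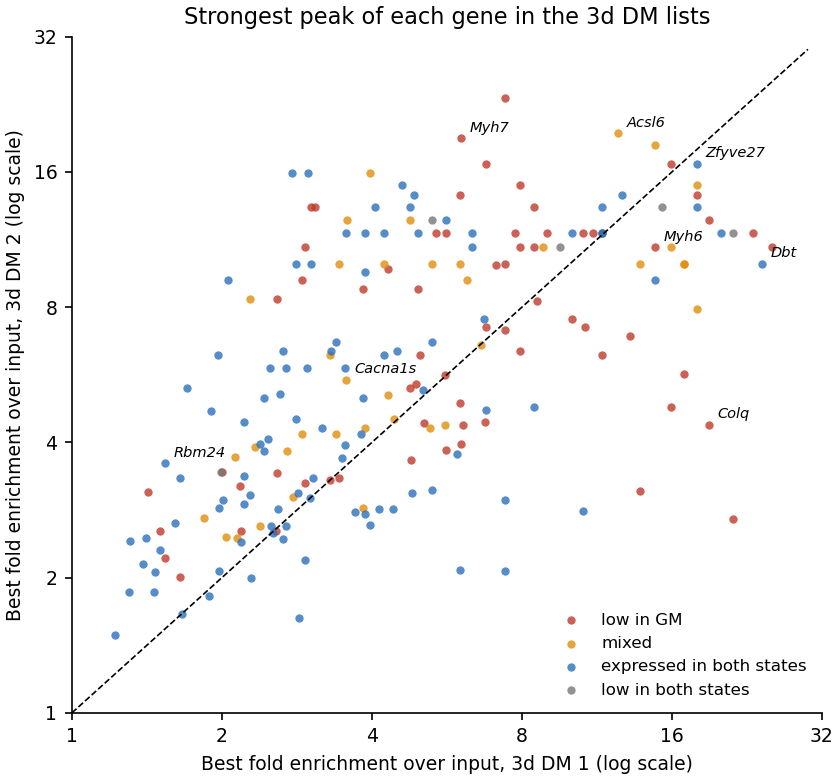
Best fold enrichment over input of each member in the list of 3d DM 1 (horizontal axis) and 3d DM 2 (vertical axis), log scales, coloured by class as before; the dashed line marks equal folds and members without an RNA value are left out. The best peaks of a gene in the lists need not lie at the same place. Genes expressed in both states fill the lower left but reach the upper right with Zfyve27 (18.0 and 16.7, at different places). Points line up at recurring values such as 11.7 in 3d DM 2.

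The members near the limits of the rule show what it turns on. Just inside it were Cdkl3, whose best P value in 3d DM 2 was 0.00776, Dtna with 0.00708 and Prrt4 with 0.00631 in 3d DM 1. Just outside were AC013548.1, Usp2 and Gprasp1, with peaks in both 3d DM lists and 1 line in a GM list. The GM line of Usp2, a deubiquitinase, had a P value of 0.00631 and a fold of 9.39 in GM 2, where its RNA value was 16.1, and that of Gprasp1 a P value of 0.00617 and a fold of 9.62 in GM 1. Of the 5653 genes with a peak in both 3d DM lists, 453 had one in a single GM list, 301 in GM 1 and 152 in GM 2. Without the list of GM 1 the members would number 512, without GM 2 363, without 3d DM 1 417 and without 3d DM 2 639.

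The peaks of the lists met at the same place on 165 of 211 members (78.2%, at least 1 shared base), among them Myh6, Trim72, Cacna1s and Dbt, and on 45.5% when 50% of both peaks had to be shared. It was 57 of 66 genes low in GM (86.4%) and 69 of 99 expressed in both states (69.7%), beside 96.6% of the genes with a peak in all 4 lists, which have more and wider peaks. At the 165 shared places the fold was higher in 3d DM 2 on 112 genes, and the lists were more than 2-fold apart on 39. The same counts on other genes were not made. Over distinct peaks of all other genes the median fold was also higher in 3d DM 2, 4.38 against 3.93 in 3d DM 1. Searched by position rather than by symbol, no member peak overlapped a GM peak of another gene on its strand, and 1 did so on the opposite strand, Dvl2 with its neighbour Acadvl in GM 2.

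Along the transcript the members resembled the other genes of the same lists. By the authors' labels, 70.7% and 72.3% of member lines touched the CDS and 41.9% and 46.9% the 3′ UTR, against 72.8% and 73.8% and 45.5% and 45.7% of all other lines. The 5′ UTR was touched by 3.81% and 1.77% of member lines and by 4.63% and 4.52% of the others. In the CDS the classes differed more than members from the others. Genes low in GM had 76.2% and 79.9% of lines in the CDS, and genes expressed in both states 59.6% and 58.9%. For the 3′ UTR the order was reversed, 39.5% and 40.7% against 48.4% and 60.3%. Near the stop codon, no more than 200 nt away, were 23.2% and 28.4% of the midpoints of placed member peaks, where even placement on the same transcripts gives 12.3% and 13.5%. The ratio was 1.88 and 2.11 for members and 1.96 and 2.11 for all other genes.

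**Figure D4:**
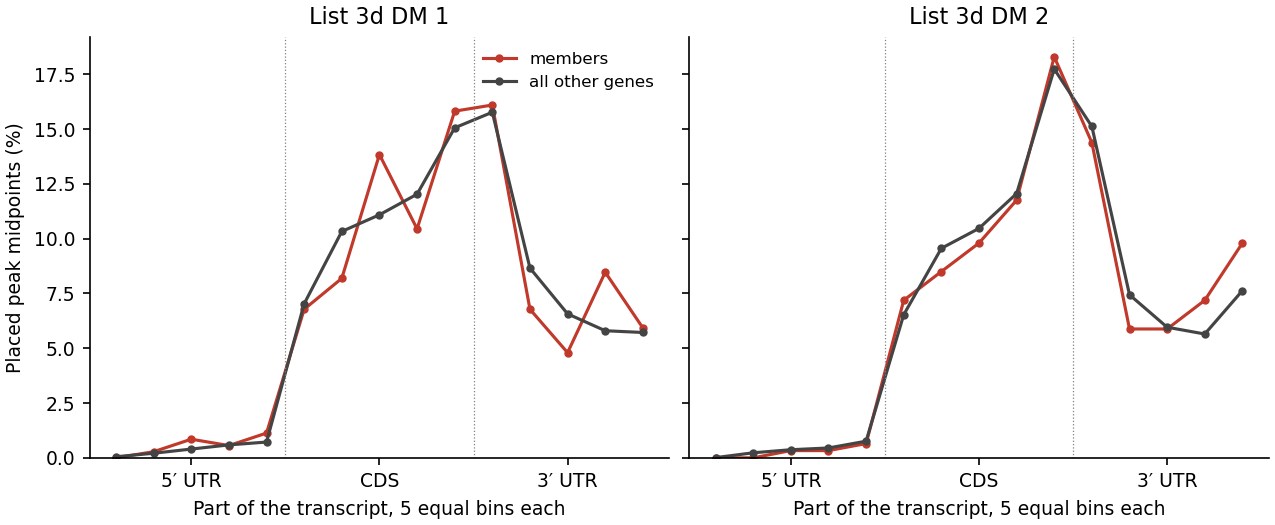
Share of placed distinct peaks, in percent, whose midpoint falls in each of 5 equal bins per transcript region (5′ UTR, then CDS, then 3′ UTR), for members (red) and all other genes (grey) in each 3d DM list; bins of different regions differ in length. Both curves are highest in the last CDS bin, with 15.8% and 18.3% of member peaks, or in the first bin after it.

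DRACH matches were found in 92.7% and 94.4% of the members' placed peaks and in 95.7% and 94.4% of those on all other genes. Per kb, member peaks held 22.57 and 22.79 matches against 19.99 and 19.99 in the rest of the same transcripts, ratios of 1.13 and 1.14. For all other genes the ratios were 1.16 and 1.15. The core GGAC gave different ratios in the classes. Peaks on genes low in GM held 6.38 and 6.20 GGAC per kb against 4.95 and 5.12 outside (ratios 1.29 and 1.21), as in Unc45b and Myh6 above. Peaks on genes expressed in both states held 3.60 and 3.75 against 3.76 and 3.78 (ratios 0.96 and 0.99). Of the shared stretches on such genes, each taken within 1 exon, those of Rb1, Dbt and Vps50 hold no GGAC. Those of Smyd1, Nrap, Ttc17 and Zfyve27 hold 1 each. GGAC was counted with any base after it, and that of Smyd1, followed by G, is not a DRACH match. The ratios of all other genes were 1.26 and 1.35. They rest on 93 and 71 GGAC matches in 25.8 and 18.9 kb of peaks in the class expressed in both states, the lists share many of these places, and the difference was not tested.

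**Figure D5:**
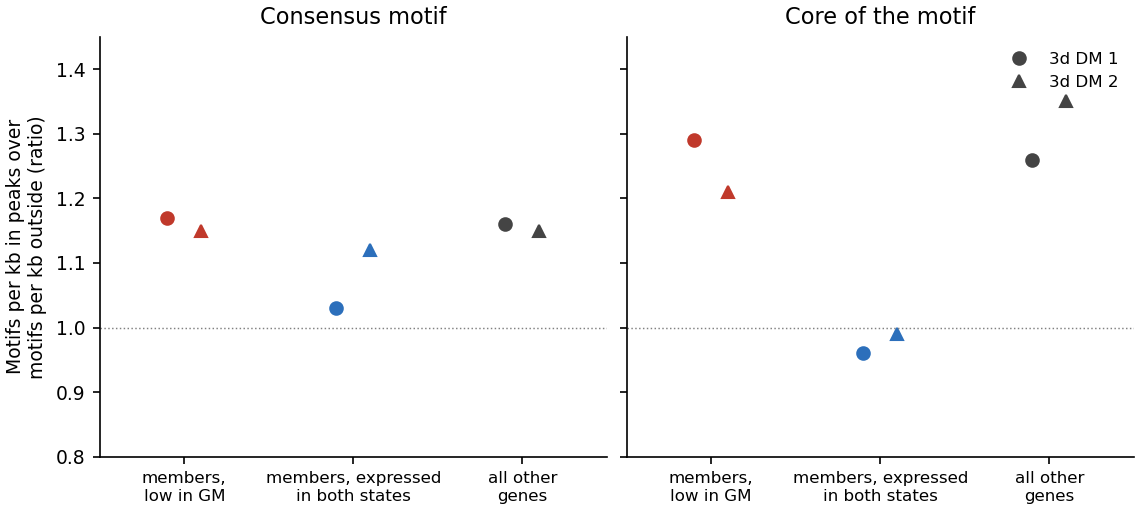
Ratio of motif matches per kb inside peaks to those in the rest of the same transcripts, for DRACH (left) and its core GGAC (right); circles are the list of 3d DM 1, triangles 3d DM 2, and the dotted line marks a ratio of 1. For the core, members expressed in both states sit at 0.96 and 0.99, below members low in GM (1.29 and 1.21) and all other genes (1.26 and 1.35).

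Promoters were looked at because many members rose together. RefSeq promoters on GRCm38 (250 bases before to 50 after the start) were matched by symbol for 157 members. The E-box CAGCTG, which reads the same on both strands and is bound by myogenic factors such as MyoD, was in 27.4% of them, 27.7% of those low in GM and 24.3% of those expressed in both states, and in 16.1% of all 27025 promoters. The E-box CACCTG, counted on either strand, was in 33 of the 157 matched members, 16 of the 47 low in GM, and 5413 of all 27025 promoters. The looser CANNTG, which includes both, was in 70.7% against 72.1%. The TATA box TATAAA was in 8.3% against 14.2%, and the core of the MEF2 site in 3.8% against 3.7%. That core was in 4 of the 47 low in GM, 2 of the 74 expressed in both states and 0 of the 32 mixed. A match is not a bound site, and no difference was tested.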

How the data were processed

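The authors aligned reads to mm10 with HISAT2 2.1.0 and called peaks with exomePeak, each immunoprecipitated library against its own input, at a stated P value threshold of 0.05. The largest exomePeak P values in the lists were lower, 0.0107 (GM 1), 0.0087 (GM 2), 0.0085 (3d DM 1) and 0.0078 (3d DM 2). Absence from a GM list is therefore absence at about these values, not at 0.05. The deposited lists give each peak's P value and its fold enrichment (a ratio over input). The deposited expression table holds a normalized signal per gene, which the authors call TMM. It holds no counts, so depth is unknown. Distinct peaks merged the lines of a gene in a list whose spans, introns included, shared at least 1 base. Separate peaks within a longer span therefore count as 1. RNA was tested on log2(value + 1) with limma 3.58.1 (R 4.3.3, intensity trend, 3d DM minus GM) over 11406 genes, those that reached 2 cpm (of a library's summed values) in 2 or more of the 4 libraries. Standard errors follow intensity, not a gene's own spread. With 2 against 2 libraries an exact permutation test cannot go below p = 0.33, so peak features were not tested. Peaks were placed on GENCODE M21 transcripts. Members, lists and the genes named (all members of the muscle lists, the largest changes, the most peaks, and the 10 highest folds among genes expressed in both states) were chosen with earlier results of these data known. The fit was checked on simulated data. Alternatives covered the pseudocount, filter, scaling, block, limits, overlap and left-out libraries. The values of 1 member are not reported here, and it is counted among the members.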

Additional observations from a re-analysis of the deposited data

How the results depend on the processing

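Leaving out a library moved the number of members between 363 and 639, the members called higher between 29 and 113 (114 with all libraries), those expressed in both states called higher between 9 and 20 (25), and all called genes between 434 and 1104 (1936). On the same genes as tested with all libraries, runs added after the data were seen, the members called higher were 111 without GM 1, 89 without GM 2, 42 without 3d DM 1 and 64 without 3d DM 2, those expressed in both states 20, 9, 5 and 6, and all called genes 1252, 874, 145 and 676. The 1 lower call, of Plp2, went to 0 in each such run. Asking for 2 cpm in 3 libraries left 51 members called higher, by fewer genes tested, and dropping the intensity trend gave 2 lower. Replicate numbers are shared by label only (deviations of same-numbered libraries correlated at r = 0.29 over 11406 genes). With the replicate block 108 members were higher, 20 of them expressed in both states, and 0 lower. It took the genes called lower over all tested from 1136 to 705, and those called higher among the 10211 at the limit in all libraries from 435 to 262. A limit of 1 cpm left 36 genes low in GM. Peaks met on 45.5% of members when sharing 50% of both peaks and on 92.1% at P values up to 1e-05. Over both lists, lines with a single region label gave 1.304% in the 5′ UTR (2.79% for all lines), 64.9% in the CDS (71.5%) and 33.8% in the 3′ UTR (44.4%), and distinct peaks 65.4% in the CDS and 52.15% in the 3′ UTR. The motif ratio was 1.27 for GGAC (1.13 for DRACH), and the ratio near the CDS end 1.64 within 400 nt (2.0 within 200 nt). No log2 fold change of the 40 genes run singly changed sign. Of the 99 genes expressed in both states 75 lay above 0, 83 after either rescaling, and 61 to 83 with a library left out, and the median over all tested genes (-0.22) was 0.01 without 3d DM 1. The median over the 10211 genes moved as well, from -0.24 to -0.03 after median-of-ratios and -0.04 after trimmed-mean rescaling. With a library left out it lay between -0.49 and 0.01. Over the 99 genes the median was 0.67 without GM 1 and 0.23 without GM 2. It was 0.65 without 3d DM 1 and 0.17 without 3d DM 2. Over the 10211 genes the values were -0.13, -0.35, 0.01 and -0.49 in that order. The counts of all called genes take both directions together, so they are no background for the members called higher. How many of the 10211 lay above 0 was not counted. The cause of these moves was not tested except where given. Replicate number and the unknown depth limit what the calls can show.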
